A study of Mus musculus with 30 samples.

Results

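The 7 genes described here encode subunits of the GABA-A receptor: the alpha subunits Gabra2, Gabra3, Gabra4 and Gabra5, the beta subunits Gabrb1 and Gabrb2, and the delta subunit Gabrd. They were taken by symbol from an expression table of 24883 rows, each symbol matched 1 row, and all 7 passed the minimum mean level of 1 FPKM that left 13184 rows for testing. FPKM is the number of sequenced fragments scaled to transcript length and library size, a level per length that can be compared between genes. The table came from bulk RNA sequencing of the dorsal hippocampus of 30 wild-type male C57BL/6J mice aged 2 to 4 months, with 6 mice in each of 5 conditions. The object location memory (OLM) task, in which a mouse explores objects whose places it later has to remember, was trained for 10 min (T10, a threshold period) or 3 min (T3, a subthreshold period), and tissue was collected 1 h later. VEH-HC mice received the in vivo-jetPEI transfection reagent without DNA and stayed in the home cage, handled but not trained. VEH-T10 and VEH-T3 mice received the same reagent and were trained. By the study's methods, the OLM procedure also includes days of habituation to the chamber before training, which home cage mice did not have. Differences between trained and home cage mice therefore cannot tell training apart from this earlier exposure. Y397F-T10 and Y397D-T3 mice received the reagent complexed with a plasmid in which a miniCaMK2 promoter, active in excitatory forebrain neurons, drives HA-tagged mouse CREST with tyrosine 397 changed to phenylalanine (called phospho-null in the labels) or to aspartic acid (phospho-mimetic). All mice kept their own Crest gene, and no condition carried a plasmid with unchanged CREST, so an effect of the point mutation cannot be told apart from that of the plasmid itself.

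GABA-A receptors are ligand-gated chloride channels that carry most fast inhibition in the brain. Each channel is a ring of subunits, usually of alpha and beta kinds together with a gamma subunit, which favours a place at synapses, or with delta, which favours sites outside them. In the hippocampus the alpha5 subunit is known for tonic inhibition of pyramidal neurons, and alpha4 with delta for tonic, neurosteroid-sensitive inhibition of dentate granule cells.

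The values carry no fragment counts, so absolute depth is unknown. Steps between low values put each library between 0.812 and 1.24 times the depth of the median library. The hippocampal label held: the summed FPKM of 5 CA1 markers lay between 144 and 222, that of 6 CA2 and CA3 markers between 297 and 514, and that of 5 dentate granule cell markers between 64.1 and 176, so the tissue held more than CA1. Replicate 1 of VEH-T10, Y397F-T10 and VEH-T3 stood apart. In these 3 libraries the summed FPKM of 5 astrocyte markers was 391 to 419, against 506 to 1623 in the other 27, that of 5 microglial markers 142 to 163 against 201 to 589, and that of 5 oligodendrocyte markers 1171 to 1304 against 1476 to 3829. Values below are therefore also given without them, a choice made after their marker levels had been seen. Markers of neighbouring tissue also differed between conditions. The 6 choroid plexus markers had a median sum of 3156 FPKM in VEH-HC (919 to 5615), 1957 in VEH-T3, 124 in Y397D-T3, 101 in VEH-T10 and 55.8 in Y397F-T10, with trained mice from 10.1 to 12813, and 0 of the 6 were called in any comparison with home cage. At an unadjusted p under 0.05 in limma, 6 choroid plexus markers were lower in Y397D-T3 and 3 in VEH-T10, against 14.6% and 10.3% of all rows. In Y397F-T10 and VEH-T3 0 were, against 11.4% and 13.8%. The 6 thalamus markers summed to 27.4 to 37.2 FPKM in VEH-HC and to 11.8 to 51.6 in trained mice. The median sum was 32.3 in VEH-HC and 27.8 to 32.3 in the trained conditions. The thalamic glutamate transporter gene Slc17a6 was called lower in VEH-T10, Y397F-T10 and Y397D-T3, at means of 1.49 to 1.92 FPKM against 4.39. It was the only one of the 6 called in VEH-T10 and Y397F-T10, while 2 were called in Y397D-T3 and 0 in VEH-T3. Of all tested rows, 0.66% were called lower in Y397F-T10 and 3.16% in Y397D-T3, and 0.819% in either direction in VEH-T10. All 12 of these markers had medians above 0. In bulk tissue, fewer cells of a type and less RNA per cell cannot be told apart.

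Gabra5 was the most abundant of the 7 transcripts, at 76.7 ± 7.46 FPKM (SD, n = 30 mice). Gabrb2 followed at 26.0 ± 2.79, Gabra4 at 23.7 ± 2.45, Gabrd at 14.7 ± 3.07, Gabra2 at 14.7 ± 2.07, Gabrb1 at 12.7 ± 2.09 and Gabra3 at 11.5 ± 4.19. Gabra5 was above Gabrb2 in 30 of 30 mice, with no overlap between their ranges, and Gabra4 was above Gabrd in 30 of 30. The other neighbours in this order overlapped, with Gabrb2 above Gabra4 in 22 mice, Gabrd above Gabra2 in 17, Gabra2 above Gabrb1 in 26 and Gabrb1 above Gabra3 in 21. Gabra3 varied most between mice, with a coefficient of variation of 36.5%, and Gabra5 least, at 9.73%. Among the 12 other GABA-A subunit genes, 5 reached a mean of 1 FPKM, among them Gabrg1 at 3.50 ± 0.729 and Gabrg3 at 1.36 ± 0.427. Gabra6, known from cerebellar granule cells, did not exceed 0.221 FPKM in any mouse.

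**Figure D1:**
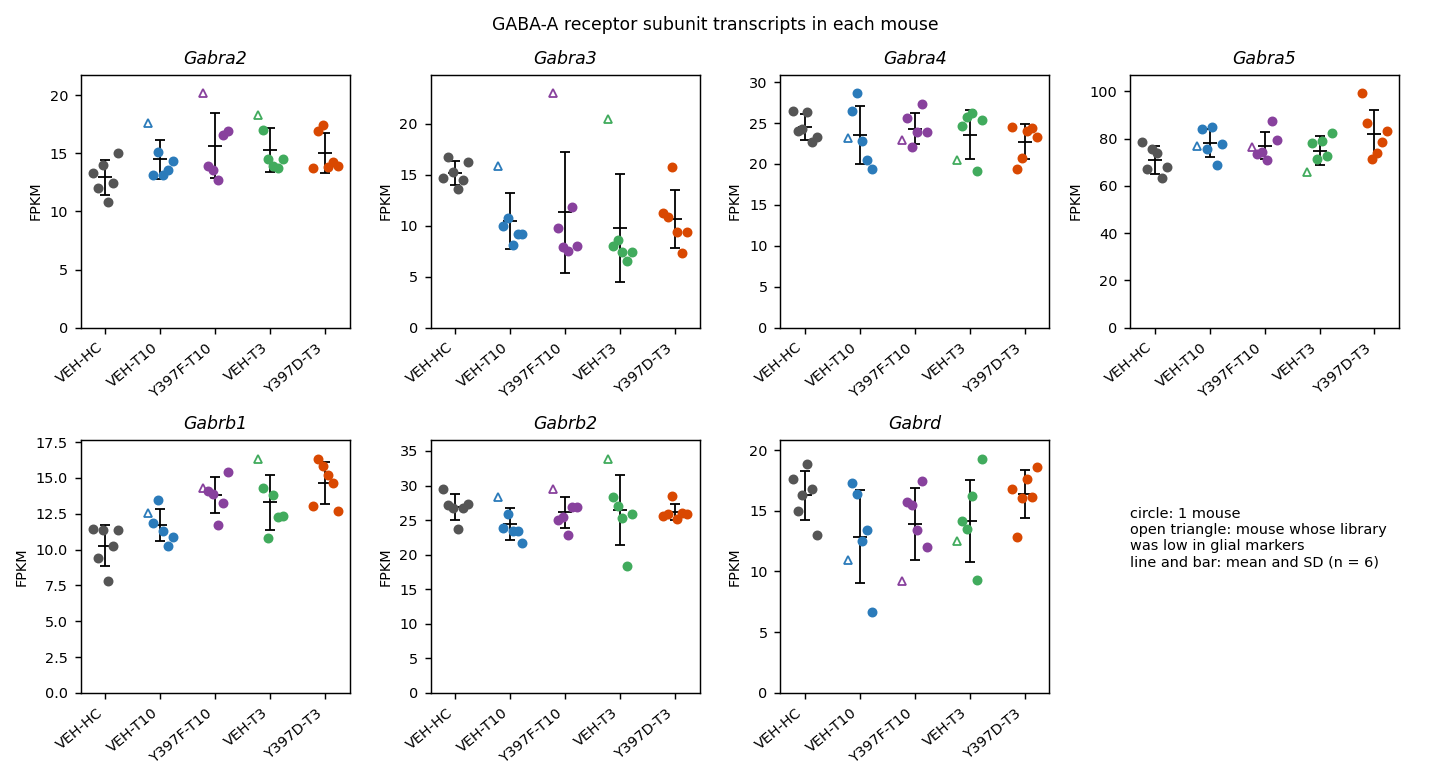
FPKM of the 7 subunit genes (vertical axes, from 0) in each mouse of the 5 conditions (horizontal axes); lines and bars are the mean and SD of 6 mice, and open triangles are the 3 libraries low in glial markers. Gabrb1 lay above all VEH-HC mice in 6 of 6 Y397F-T10 and 6 of 6 Y397D-T3 mice, and Gabra3 was low in most trained mice but high in the open triangles.

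Gabrb1, which encodes the beta1 subunit, was the only member to pass against home cage in the main fit (all mice, no alternative processing). It lies on the plus strand of chromosome 5 (71658113 to 72149037, GRCm38) in a cluster with Gabra2 (70957597 to 71095849, minus strand) and Gabra4 (71569749 to 71658308, minus strand). The start of its longest gene model overlaps the start of Gabra4 by 196 bases on the opposite strand. The strandedness of the libraries is not given in the sources used here, and without strand, reads in that stretch cannot be told apart. A further Gabrb1 start lies within the gene, and the 250 bases before it are shown because Gabrb1 carries the main difference reported here, with those before the outer Gabra3 start for comparison, since Gabra3 had the largest difference in the opposite direction. Both are RefSeq promoter sequence of GRCm38.p6, and capitals mark matches of GCGCATGC, letters from the binding motif of the transcription factor NRF1, which was looked for after the sequence had been seen.
Gabrb1, chr5:71699682-71699931, plus strand: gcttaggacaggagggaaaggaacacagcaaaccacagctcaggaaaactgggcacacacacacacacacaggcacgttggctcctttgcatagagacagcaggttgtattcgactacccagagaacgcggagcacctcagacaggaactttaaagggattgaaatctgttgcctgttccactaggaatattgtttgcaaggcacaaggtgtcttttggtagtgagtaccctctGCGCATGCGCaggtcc
Gabra3, chrX:72656920-72657169, minus strand: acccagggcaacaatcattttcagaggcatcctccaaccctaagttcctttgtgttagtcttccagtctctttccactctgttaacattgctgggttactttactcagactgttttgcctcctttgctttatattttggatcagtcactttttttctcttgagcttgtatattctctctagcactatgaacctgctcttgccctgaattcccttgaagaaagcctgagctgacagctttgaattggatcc

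RefSeq windows of 300 bases, 250 before a start and 50 after it, were found for 6 of the 7 members, 10 windows in all. GCGCATGC stood in the Gabrb1 window shown, from 16 bases before the start on one strand and overlapping that on the other, in no other window of the members and in 2.71% of all 32851 windows. The full cAMP response element TGACGTCA, the site of CREB, was in 0 of the 10 windows and in 1.79% of all. TGANTCA, the AP-1 site of Fos and Jun proteins, was in 0 of the 10 and in 7.81% of all. TGACG, which is part of the full CREB site, stood in 1 window, that of Gabrb2, and in 20.8% of all. TATAAA, the TATA box, stood in 3 windows, 1 of Gabrb2 and 2 overlapping ones of Gabra3 that share the match, and in 13.6% of all. Both strands were searched each time.

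In VEH-HC mice, Gabrb1 ran from 7.84 FPKM through a median of 10.8 to 11.4. Its values in Y397D-T3 ran from 12.7 through 14.9 to 16.3, and in Y397F-T10 from 11.7 through 14.0 to 15.4. The lowest mouse of each of these conditions thus lay above the highest home cage mouse. In VEH-T3 the values ran from 10.8 through 13.1 to 16.3, and in VEH-T10 from 10.3 through 11.6 to 13.4. These conditions overlapped home cage: 5 of 6 VEH-T3 mice and 3 of 6 VEH-T10 mice were above every VEH-HC mouse.

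In limma, with Benjamini-Hochberg adjustment over all 13184 rows, Gabrb1 was 14.6 ± 1.48 FPKM in Y397D-T3 against 10.3 ± 1.44 in VEH-HC (SD, n = 6; log2 fold change 0.48, SE 0.0896, adjusted p = 0.00248). Folds are differences on the log2(FPKM + 1) scale, which understates changes of low genes. In Y397F-T10 it was 13.8 ± 1.24 (0.40, adjusted p = 0.0318 in limma), and in VEH-T3 13.3 ± 1.93 (0.34, adjusted p = 0.0272). In VEH-T10, at 11.7 ± 1.14, the difference of 0.18 did not pass (95% interval -0.01 to 0.36, adjusted p = 0.351 in limma). So 1 of 7 members was called higher in each of VEH-T3, Y397D-T3 and Y397F-T10, where 2.23%, 3.91% and 0.47% of all tested rows were, and 0 were called lower, where 2.94%, 3.16% and 0.66% were. In VEH-T10 0 of 7 were called, against 0.819% of all rows. At an unadjusted p under 0.05, 0 members were higher and 2 lower in VEH-T10 (Gabra3 and Gabrd), where 4.57% and 10.3% of all rows were. In Y397F-T10 2 were higher (Gabra2 and Gabrb1) and 1 lower (Gabra3), against 5.5% and 11.4%, and in VEH-T3 the same 3 genes passed in the same directions, against 7.79% and 13.8%. In Y397D-T3 3 were higher (Gabra2, Gabra5 and Gabrb1) and 1 lower (Gabra3), against 10.3% and 14.6%. Ranges without overlap and higher than home cage were found for 0.554% of rows in Y397F-T10 and 2.5% in Y397D-T3. These 4 comparisons share the VEH-HC mice. Across the 5 conditions together, the moderated F test called Gabrb1 alone among the members (adjusted p = 0.0139 in limma), against 2.64% of rows.

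The Y397D-T3 difference of Gabrb1 stayed past the threshold with any of the 30 libraries left out, with adjusted p from 0.0016 to 0.00868 in limma. The other calls did not. VEH-HC replicate 4, at 7.84 FPKM, was the lowest mouse of all, and without it Y397F-T10 gave an adjusted p of 0.0868 and VEH-T3 of 0.0832 in limma. The Y397F-T10 call of Gabrb1 was also lost without VEH-HC replicate 2 (0.0796) or 5 (0.0625), or without Y397F-T10 replicate 3 (0.0835), 5 (0.0604) or 6 (0.101), and the VEH-T3 call without VEH-HC replicate 2 (0.0642) or VEH-T3 replicate 2 (0.081). Gabrb1 has long transcripts, the longest annotated one at 13737 bases. With each library's trend over transcript length and GC content removed, the Gabrb1 log2 fold change was 0.36 in Y397D-T3 (adjusted p = 0.00208 in limma), 0.27 in Y397F-T10 (0.0674) and 0.17 in VEH-T3 (0.215). With the spread taken from the 12 libraries compared alone, the Gabrb1 calls in Y397F-T10 (0.0772) and VEH-T3 (0.12) were lost, and with libraries centred on their medians that in Y397F-T10 (0.0561). Without the 3 libraries low in glial markers all 3 calls of Gabrb1 stood, with adjusted p of 0.0014 in Y397D-T3, 0.0115 in Y397F-T10 and 0.0377 in VEH-T3, where 5.3%, 1.68% and 4.52% of all rows were then higher. Over the 30 mice Gabrb1 ran against the thalamus sum on the log2 scale (r = -0.37, rho = -0.49, permutation p = 0.0423 and 0.00633, adjusted 0.0987 and 0.0375 over 77 relations of members with marker lists, r = -0.44 without the 2 farthest mice and -0.41 with condition means removed). With the choroid plexus sum r was -0.35 and rho -0.35 (permutation p = 0.0563 and 0.0579, adjusted 0.121 and 0.149), with r = -0.34 without the 2 farthest mice and -0.15 with condition means removed. With microglial markers r was -0.42 and rho -0.37 (permutation p = 0.0193 and 0.0418, adjusted 0.0552 and 0.129). Without the 2 farthest mice that r was -0.38, and with condition means removed -0.49. For oligodendrocyte markers r was -0.23, and -0.45 with condition means removed. For CA2 and CA3 markers r was -0.10, and -0.43 with condition means removed. The part of neighbouring tissue and cell content in the Gabrb1 differences was not tested.

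**Figure D2:**
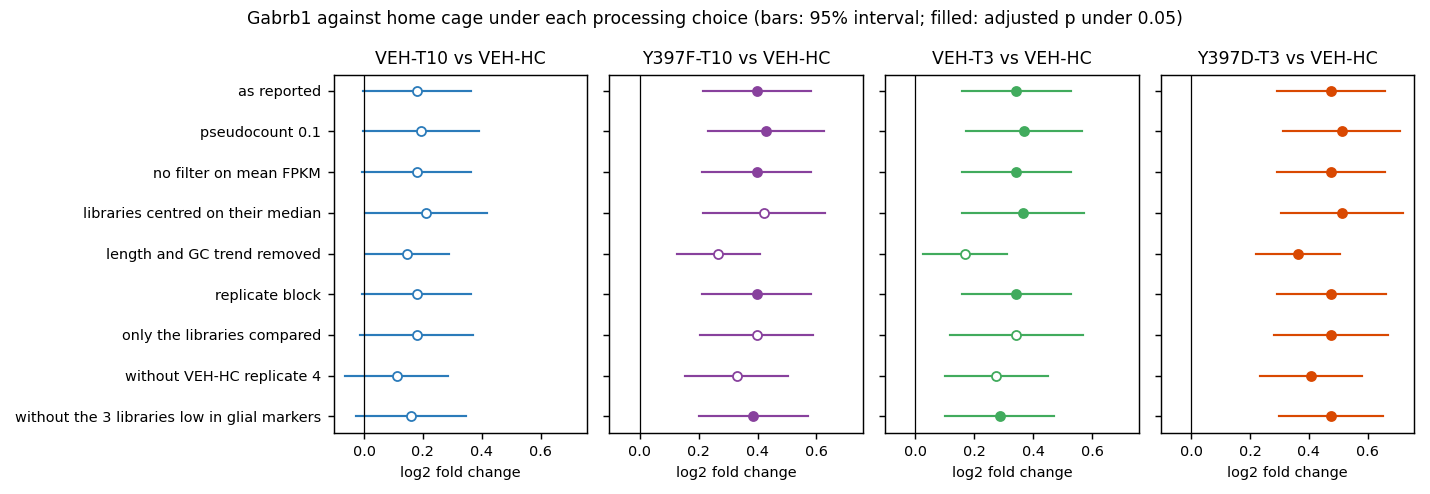
Log2 fold change of Gabrb1 against VEH-HC (horizontal axes) with its 95% interval under each processing choice (rows), in the 4 trained conditions; filled points have an adjusted p under 0.05. The Y397D-T3 points are filled in every row, while the Y397F-T10 and VEH-T3 points open without VEH-HC replicate 4, with the length and GC trend removed and with only the libraries compared, and that of Y397F-T10 also with centred libraries.

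**Figure D3:**
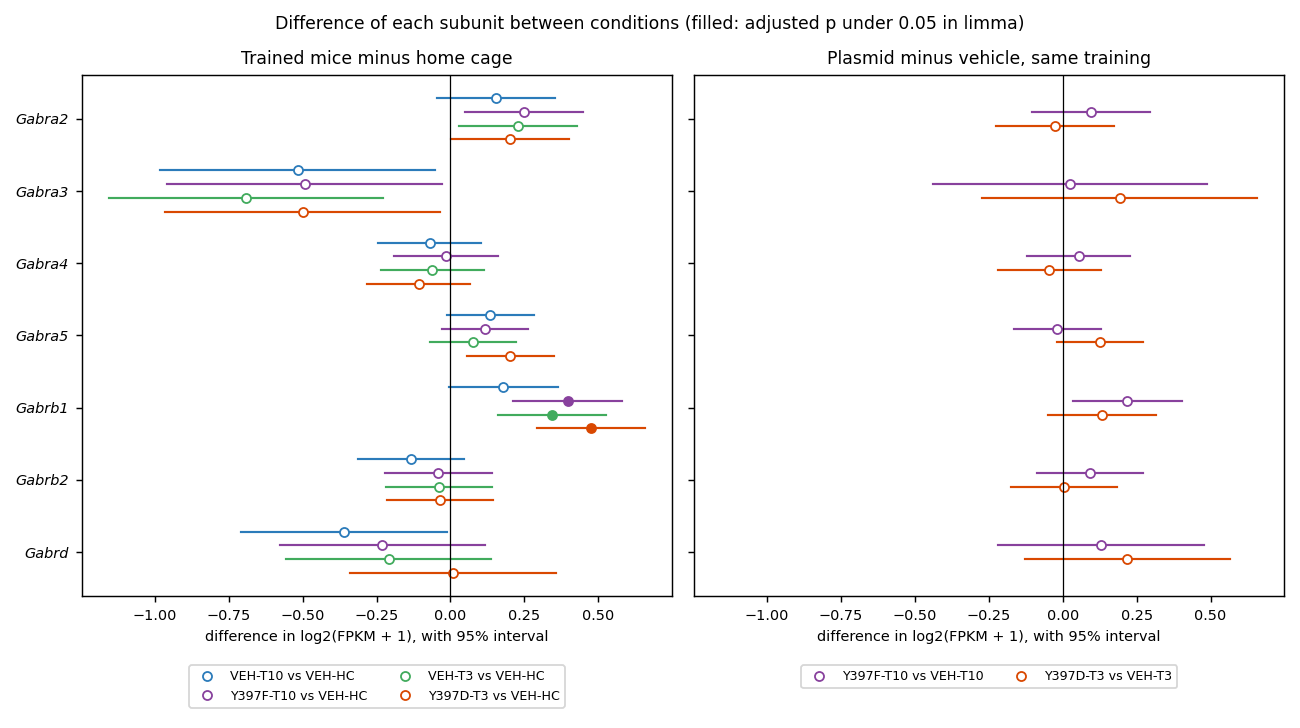
Difference in log2(FPKM + 1) of the 7 subunits, with 95% intervals, for the 4 trained conditions against VEH-HC (left) and for each plasmid against vehicle with the same training (right); filled points have an adjusted p under 0.05 in limma. Filled points are those of Gabrb1 in Y397F-T10, VEH-T3 and Y397D-T3 at 0.40, 0.34 and 0.48, and none is filled on the right.

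Gabra3 encodes the alpha3 subunit, which is known from cortical and subcortical neurons more than from hippocampal pyramidal cells. The gene lies on chromosome X (72432681 to 72656848, minus strand). In VEH-HC its level ran from 13.6 FPKM through a median of 15.0 to 16.7. In trained mice most values were lower: VEH-T3 ran from 6.52 through 7.72 to 20.4, Y397D-T3 from 7.36 through 10.1 to 15.7, VEH-T10 from 8.12 through 9.55 to 15.8 and Y397F-T10 from 7.51 through 8.88 to 23.0. In each trained condition 5 of 6 mice lay below every home cage mouse and the remaining one within or above their range. The high mouse was replicate 1 in VEH-T10, Y397F-T10 and VEH-T3, the libraries low in glial markers, and replicate 3 in Y397D-T3, whose astrocyte sum of 506 was the next lowest. With all mice in the main fit, Gabra3 passed in none of the comparisons with home cage. Its log2 fold changes were -0.69 in VEH-T3, -0.50 in Y397D-T3, -0.52 in VEH-T10 and -0.49 in Y397F-T10, with adjusted p of 0.069, 0.168, 0.278 and 0.261 in limma. With the spread taken from the libraries compared alone Gabra3 was called in VEH-T10 (0.0438) and Y397D-T3 (0.0222). With the replicate number as a block it was called in VEH-T3 (0.0253).

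Without the 3 libraries low in glial markers, Gabra3 was called lower in all 4 comparisons, with log2 fold changes in the same order of -0.91, -0.50, -0.63 and -0.71 and adjusted p of 5.78e-05, 0.00817, 0.00378 and 0.00167 in limma. That step takes out the highest Gabra3 value of each of those 3 conditions and raises calls in general, to 7.98%, 5.95%, 4.0% and 4.55% of all rows lower. The F test across conditions then called Gabra3 beside Gabrb1, against 10.4% of all rows. Leaving out VEH-T3 replicate 1 alone gave an adjusted p of 0.0059 for VEH-T3 and 0.0453 across the 5 conditions, and leaving out Y397F-T10 replicate 1 gave 0.0488 for Y397F-T10 and 0.0303 for VEH-T3. So the Gabra3 difference from home cage was called or not according to these mice and, as given above, to the model fitted.

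Gabra3 also moved with markers of neighbouring tissue and of other cell types, in opposite directions. The 6 deep cortex markers, of which 4 had a mean of at least 1 FPKM and 0 a median of 0, summed to 20.7 to 25.9 FPKM in VEH-HC, 17.2 to 30.1 in VEH-T3, 16.7 to 24.2 in Y397D-T3, 16.3 to 19.9 in VEH-T10 and 15.3 to 22.3 in Y397F-T10. Over the 30 mice, log2 Gabra3 and the log2 sum correlated (r = 0.71, rho = 0.61, permutation p = 3e-05 and 0.00044, or 0.00077 and 0.0113 adjusted over the 77 relations). Without the 2 mice farthest from the median sum r was 0.63, and with each condition's mean removed 0.67. With astrocyte markers the relation was negative (r = -0.63, rho = -0.54, permutation p = 0.0002 and 0.0021, adjusted 0.00171 and 0.0231), with r = -0.45 without the 2 farthest mice and -0.82 with condition means removed. With thalamus markers it was negative too (r = -0.59, rho = -0.36, permutation p = 0.00036 and 0.0509, adjusted 0.00259 and 0.145), with r = -0.41 without the 2 farthest mice and -0.84 with condition means removed. With interneuron markers it was positive (r = 0.57, rho = 0.65, permutation p = 0.00126 and 0.00012, adjusted 0.00539 and 0.00462), with r = 0.60 without the 2 farthest mice and also 0.60 with condition means removed. With the CA2 and CA3 markers r was -0.52 and rho -0.39 (permutation p = 0.00288 and 0.0334, adjusted 0.0106 and 0.112), with r = -0.30 without the 2 farthest mice and -0.62 with condition means removed. With dentate granule cell, oligodendrocyte, microglial and endothelial markers r was between -0.64 and -0.51, each with an adjusted permutation p of at most 0.0126. Without the 3 libraries low in glial markers r was 0.67 for deep cortex, 0.48 for interneurons, -0.37 for astrocytes, -0.26 for thalamus and -0.23 for CA2 and CA3. The part of neighbouring tissue and cell content in the Gabra3 result was not tested.

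**Figure D4:**
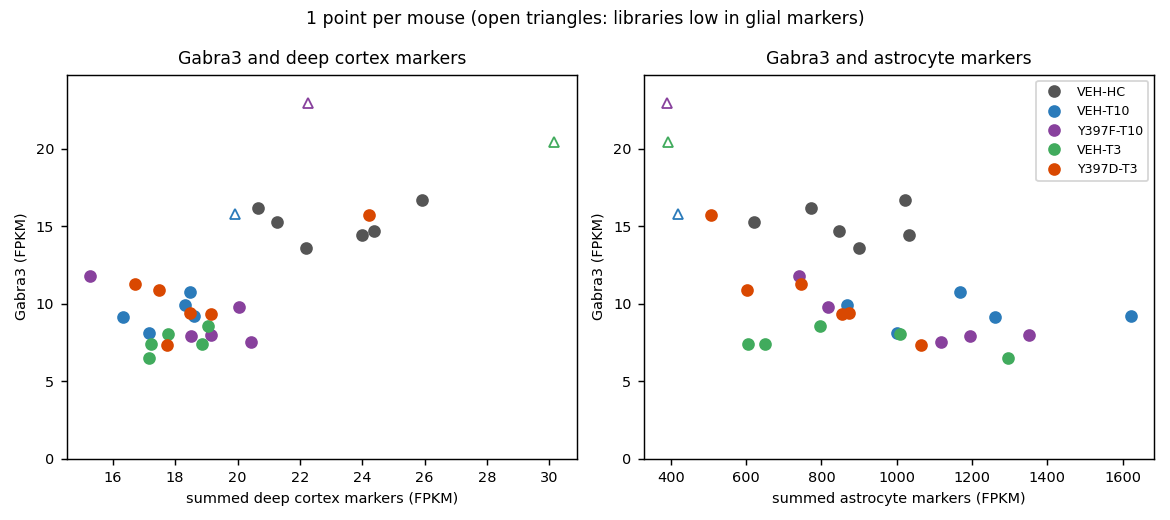
FPKM of Gabra3 in each mouse (vertical axes) against the summed FPKM of deep cortex markers (left) and astrocyte markers (right), coloured by condition, with open triangles for the 3 libraries low in glial markers. The VEH-HC mice sit between 13.6 and 16.7 FPKM with deep cortex sums of at least 20.7, and the open triangles combine astrocyte sums of 391 to 419 with Gabra3 of 15.8 to 23.0.

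Gabra5 encodes the alpha5 subunit and lies on chromosome 7 (57407672 to 57510059, minus strand). Its level ran from 63.3 FPKM through 71.0 to 78.5 in VEH-HC and from 71.4 through 80.9 to 99.2 in Y397D-T3. All 6 Y397D-T3 mice were above the home cage median and 4 above every home cage mouse, but the difference did not pass (0.20, SE 0.0714, 95% interval 0.06 to 0.35, adjusted p = 0.0791 in limma). It was called with the length and GC trend removed (0.28, adjusted p = 0.0223 in limma) and without Y397D-T3 replicate 3 (0.24, 0.0422), the mouse with the lowest Gabra5 and highest Gabra3 of that condition. In VEH-T3, VEH-T10 and Y397F-T10, Gabra5 measured 75.0 ± 6.09, 78.1 ± 6.00 and 77.1 ± 5.82 FPKM (SD, n = 6), against 71.0 ± 5.85 in VEH-HC. Those 3 conditions overlapped home cage widely, and the adjusted p were 0.60, 0.386 and 0.418 in limma. Against the deep cortex sum, Gabra5 ran opposite to Gabra3 (r = -0.66, rho = -0.67, permutation p = 8e-05 and 5e-05, adjusted 0.00123 and 0.00385; r = -0.58 without the 2 farthest mice and -0.59 with condition means removed).

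Gabra2, for the alpha2 subunit, which is enriched at the axon initial segment of pyramidal neurons, was 12.9 ± 1.52 FPKM in VEH-HC. It ran from 10.8 through 12.8 to 15.1 there, from 13.7 through 14.5 to 18.3 in VEH-T3, from 13.7 through 14.1 to 17.5 in Y397D-T3, from 13.1 through 14.0 to 17.6 in VEH-T10 and from 12.7 through 15.3 to 20.2 in Y397F-T10. The trained medians were higher than the home cage median, but the ranges overlapped. The log2 fold changes were 0.25 in Y397F-T10 (95% interval 0.05 to 0.45), 0.23 in VEH-T3 (0.03 to 0.43), 0.20 in Y397D-T3 (0.0021 to 0.40) and 0.15 in VEH-T10 (-0.05 to 0.35). Adjusted p were between 0.165 and 0.49 in limma, although 3 of these intervals excluded 0. Over the 30 mice Gabra2 followed Gabrb1 more closely than any other member did (r = 0.73, rho = 0.64 on the log2 scale, a description from shared libraries). The highest Gabra2 mouse of VEH-T3, VEH-T10 and Y397F-T10 was in each case replicate 1, low in glial markers. Gabra2 also ran against the thalamus, microglial and astrocyte sums (r = -0.67, -0.60 and -0.57, adjusted permutation p = 0.00077, 0.00295 and 0.00498). Without the 3 libraries low in glial markers these r were -0.37, -0.31 and -0.27. With interneuron markers r was 0.20 (adjusted permutation p = 0.475). The part of tissue content in the Gabra2 values was not tested.

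Gabra4 and Gabrd, for the alpha4 and delta subunits that assemble together in granule cells, also varied together over the mice (r = 0.64, rho = 0.66). Gabra4 ran from 22.7 FPKM through 24.2 to 26.5 in VEH-HC, and trained medians were 25.0 in VEH-T3, 23.7 in Y397D-T3, 23.0 in VEH-T10 and 23.9 in Y397F-T10. Its log2 fold changes against home cage were between -0.11 and -0.02, and their 95% intervals all stayed between -0.28 and 0.16. Gabrd (chromosome 4, 155384980 to 155398112, minus strand) ran from 13.0 through 16.6 to 18.9 in VEH-HC, from 9.32 through 13.8 to 19.3 in VEH-T3, from 12.9 through 16.5 to 18.6 in Y397D-T3, from 6.68 through 13.0 to 17.3 in VEH-T10 and from 9.25 through 14.4 to 17.5 in Y397F-T10. Mice below every home cage mouse came from all trained conditions, in Y397D-T3 only 1, at 12.9 FPKM. Every condition overlapped home cage. The differences were -0.36 in VEH-T10 (95% interval -0.71 to -0.01, adjusted p = 0.315 in limma), -0.21 in VEH-T3 (0.521), 0.01 in Y397D-T3 (0.981) and -0.23 in Y397F-T10 (0.519).

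The lowest Gabrd mice were low in dentate granule cell markers, but not all low ones were. The 5 markers, each with a mean of at least 1 FPKM, summed to 108 to 138 FPKM in VEH-HC, 73.3 to 162 in VEH-T3, 88.4 to 170 in Y397D-T3, 68.7 to 159 in VEH-T10 and 64.1 to 176 in Y397F-T10. The median sum was 112 in VEH-HC and higher in the trained conditions, at 142, 144, 120 and 137 in the same order, where the Gabrd medians were lower. Of the 8 mice with Gabrd below every VEH-HC mouse, 6 had a marker sum below every VEH-HC mouse too, while Y397F-T10 replicate 6 had a sum of 142 and VEH-T10 replicate 4 one of 120. Log2 Gabrd correlated with the log2 sum over the 30 mice (r = 0.74, rho = 0.53, permutation p = 3e-05 and 0.00281, adjusted 0.00077 and 0.024), with r = 0.59 without the 2 farthest mice and 0.80 with condition means removed. For Gabra4 r was 0.58 and rho 0.46 (permutation p = 0.00081 and 0.0124, adjusted 0.00445 and 0.0478), with r = 0.55 without the 2 farthest mice and 0.65 with condition means removed. The relation of Gabrd was not confined to granule cell markers. With the CA2 and CA3 sum its r was 0.42 and rho 0.56 (adjusted permutation p = 0.0565 and 0.0222). With the CA1 sum they were 0.39 and 0.40 (adjusted permutation p = 0.0839 and 0.0992). With condition means removed these r were 0.36 and 0.27. The part of granule cell and other neuron content in the Gabrd differences was not tested.

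**Figure D5:**
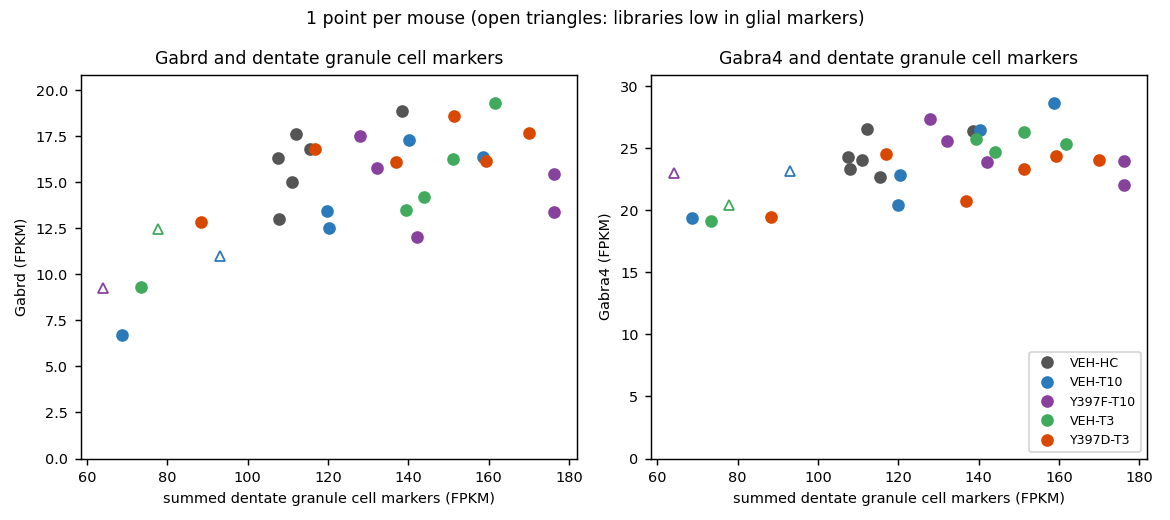
FPKM of Gabrd (left) and Gabra4 (right) in each mouse against the summed FPKM of 5 dentate granule cell markers, coloured by condition, with open triangles for the 3 libraries low in glial markers. The lowest Gabrd value, 6.68 FPKM in VEH-T10, goes with a marker sum of 68.7, while the VEH-HC mice lie at sums of 108 to 138.

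Gabrb2 encodes the beta2 subunit and lies on chromosome 11 (42419757 to 42629028, plus strand). It ran from 23.7 FPKM through 27.0 to 29.5 in VEH-HC, from 18.3 through 26.5 to 33.9 in VEH-T3, from 25.2 through 25.9 to 28.5 in Y397D-T3, from 21.7 through 23.7 to 28.4 in VEH-T10 and from 22.8 through 26.1 to 29.6 in Y397F-T10. All ranges overlapped. The log2 fold changes lay between -0.13 in VEH-T10 and -0.03 in Y397D-T3, with adjusted p of 0.51 to 0.859 in limma. Like Gabra3, Gabrb2 moved with marker sums over the mice. With deep cortex markers r was 0.58 (adjusted permutation p = 0.00503). With astrocyte, microglial and oligodendrocyte markers r was -0.63, -0.66 and -0.64 (adjusted permutation p = 0.00165, 0.00128 and 0.00171). Without the 3 libraries low in glial markers these r were 0.41, -0.46, -0.49 and -0.50 in that order. The part of tissue content in the Gabrb2 values was not tested.

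A ratio within a library does not depend on how libraries were scaled. The Gabrb1 to Gabrb2 ratio ran from 0.331 to 0.425 in VEH-HC, from 0.491 to 0.633 in Y397D-T3, from 0.438 to 0.519 in VEH-T10 and from 0.484 to 0.573 in Y397F-T10. None of these 3 trained ranges met that of home cage, while VEH-T3, from 0.398 to 0.670, did. Taken as a ratio to Gabrb2 in the same way, 2.17% of all tested rows lay above home cage without overlap in Y397D-T3, 1.27% in VEH-T10 and 0.705% in Y397F-T10. The Gabrb1 to Gabra4 ratio, from 0.297 to 0.488 in VEH-HC, was overlapped by VEH-T10 (0.446 to 0.562), Y397F-T10 (0.484 to 0.647) and VEH-T3 (0.418 to 0.798), and lay below Y397D-T3 (0.531 to 0.842), where 4.08% of all rows were above without overlap. Gabrb2 itself varied with marker sums, as given above. These ratios are given as a description, with no test.

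Between each plasmid and vehicle with the same training, limma called 0 of 7 members, against 0.0% of all rows for Y397F-T10 and 0.00758% for Y397D-T3. At an unadjusted p under 0.05, 1 member passed for Y397F-T10, against 3.78% of all rows, and 0 for Y397D-T3, against 7.87%. That member was Gabrb1, with 13.8 ± 1.24 FPKM in Y397F-T10 against 11.7 ± 1.14 in VEH-T10 (log2 fold change 0.22, 95% interval 0.03 to 0.40), where 6 of 6 Y397F-T10 mice were above the VEH-T10 median and 4 above every VEH-T10 mouse. In Y397D-T3 against VEH-T3 the Gabrb1 difference was 0.13 (95% interval -0.05 to 0.32, adjusted p = 0.728 in limma). The Gabrb1 call against home cage in Y397F-T10, absent in VEH-T10, is therefore not a called difference between these conditions. For Gabra3 the plasmid differences were 0.02 (95% interval -0.44 to 0.49) and 0.19 (-0.27 to 0.66), wide intervals that hold sizeable changes in either direction. Those of Gabra4 and Gabrb2 lay between -0.05 and 0.09, with intervals within -0.22 and 0.27. Between the 10 min and 3 min trainings of vehicle mice, limma called 0 of 7 members, against 0.0455% of all rows, and 0 passed at an unadjusted p under 0.05, against 8.15%. There Gabrb1 differed by -0.16 (VEH-T10 minus VEH-T3, 95% interval -0.35 to 0.02).

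Other genes of GABA signalling were counted from lists. Of the 5 tested subunit genes outside the 7, 0 were called higher and 1 lower in VEH-T3 and in Y397D-T3 against VEH-HC, and 0 in the T10 conditions, where 2 in VEH-T10 and 1 in Y397F-T10 were lower at an unadjusted p under 0.05. The called gene was Gabrg1, for a gamma subunit, which fell from a home cage level of 4.54 ± 0.410 FPKM to 3.08 ± 0.582 in Y397D-T3 (log2 fold change -0.45, adjusted p = 0.00631 in limma) and 3.21 ± 0.634 in VEH-T3 (-0.41, 0.0189). In both, 6 of 6 mice were below the home cage median. Gabrg1 was lower on average in the T10 conditions too, where it was not called. It was 3.26 ± 0.155 FPKM in VEH-T10 (3.06 to 3.45) and 3.42 ± 0.678 in Y397F-T10 (2.36 to 4.43). The VEH-HC range was 3.87 to 5.04. The median log2 fold change of these 5 genes was -0.19 in VEH-T3, -0.09 in Y397D-T3, -0.25 in VEH-T10 and -0.06 in Y397F-T10, where that of all tested rows was between -0.04 and -0.03.

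All 7 genes of GABA synthesis, release and uptake had a negative log2 fold change against home cage in each trained condition, with medians of -0.26 in VEH-T3, -0.24 in Y397D-T3, -0.28 in VEH-T10 and -0.25 in Y397F-T10. In limma 2 of 7 were called lower in VEH-T3 and 0 in the other 3 conditions. Among them was Abat, the GABA transaminase, from 57.4 ± 3.62 to 48.1 ± 5.40 (-0.25, adjusted p = 0.0451). At an unadjusted p under 0.05, 6 of the 7 were lower in VEH-T10 and 5 in each other condition, against 10.3% to 14.6% of all rows as given above. Of the 8 interneuron markers, which share Gad1, Gad2 and Slc32a1 with that list, 0 were called and 3 were lower at that threshold in each trained condition, or 4 in VEH-T3, with median log2 fold changes of -0.23 in VEH-T3 and -0.17 in each of the others. Their sum ranged from 621 to 894 FPKM in VEH-HC and from 583 to 1089.6 in trained mice. Among 5 GABA-B receptor and auxiliary genes, Kctd16, an auxiliary subunit, rose in Y397D-T3 from 4.33 ± 0.910 to 6.54 ± 0.487 FPKM (0.52, adjusted p = 0.00916 in limma), and no gene of that list passed in the other 3 conditions. Among 18 genes of the inhibitory postsynapse and receptor trafficking, Clptm1, a regulator of GABA-A receptor forward trafficking, was the gene called, lower in all 4 trained conditions at 42.8 to 44.1 FPKM on average against 48.9 ± 1.32 in VEH-HC, with log2 fold changes from -0.19 to -0.15 and adjusted p from 0.00747 to 0.0444. Neither of the 2 chloride transporter genes nor of the 2 tested neurosteroid synthesis genes passed in limma, and at an unadjusted p under 0.05 1 chloride transporter gene was lower in VEH-T10.

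Among the tested genes, those whose log2(FPKM + 1) followed each member most closely over the 30 mice were Dok6, Ralgapa1 and Soga3 for Gabrb1 (r = 0.88, 0.86 and 0.85), Adgra1, Ldb2 and Efnb2 for Gabra3 (0.97, 0.96 and 0.96), Akap6 and Wnk3 for Gabra2 (0.88 and 0.86) and Ppp3r1, Nell2 and Sh3bp5 for Gabra5 (0.84 for each). Gabra4 was followed by Synpr and C1ql3 (r = 0.80 and 0.79), Gabrb2 by Dclk1 and B230209E15Rik (0.90 and 0.89) and Gabrd by Pde1b, Stk32c and Grm2 (0.91, 0.88 and 0.85). These are descriptions of likeness across the same libraries, which share depth and tissue composition. With condition means removed, r fell for Dok6 to 0.80, for Ralgapa1 to 0.72 and for Soga3 to 0.69, and was at least 0.95 for the genes most like Gabra3.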

How the data were processed

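RNA was sequenced on NovaSeq and HiSeq instruments, and which library ran on which is not given in the sources used here. Per the labels, the authors aligned reads with TopHat2 2.1.1 and deposited FPKM values made with Cufflinks 2.2.1, which divide fragments by transcript length and library size. Such values depend on the gene models, and no fragment counts come with them, so only relative depth could be derived. Each of the 30 columns was matched to a mouse by its label, and 0 were left unmapped. No library pair had identical values.

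Values were tested as log2(FPKM + 1), with rows of mean FPKM of at least 1, in limma 3.58.1 (R 4.3.3) with a trended empirical Bayes fit over all 30 libraries. Contrasts between conditions and a moderated F test were adjusted by Benjamini-Hochberg over 13184 rows at a threshold of 0.05. The study used a related test with shrunken variances, which is not installed here. The fit was tested on simulated data. Correlations used 100000 permutations, 2-sided. Coordinates, lengths and GC content came from GENCODE M21 (GRCm38), matched for 96.2% of tested rows, and promoters from RefSeq (GRCm38.p6). Named genes were all 7 members and, from other lists, up to 3 called genes with the largest fold change in each comparison. Some genes that these rules select are not reported here. The members and lists were chosen with earlier results of these data known. Alternatives were a pseudocount of 0.1, no filter, median centring, removal of length and GC trends, a replicate block, only the libraries compared, and leaving out each library or the 3 low in glial markers.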

Additional observations from a re-analysis of the deposited data

Results flagged for a closer look

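A mouse stood apart from the other 5 of its condition, by Dixon's gap criterion for 6 samples (0.625 of the range), in 4 of the 35 combinations of a member and a condition. Chance flags about 1 in 20 groups. The 3 Gabra3 values concerned were the highest of VEH-T10 (replicate 1, 15.8 FPKM), of Y397F-T10 (replicate 1, 23.0 FPKM) and of VEH-T3 (replicate 1, 20.4 FPKM), and they come from the 3 libraries low in glial markers, so they are not independent of each other. The remaining value was Gabrb2 in Y397D-T3 replicate 3, at 28.5 FPKM, where the other mice of that condition lay close together.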

How the results depend on the processing

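Depth is unknown in absolute terms, and each condition has 6 mice; the printed 95% intervals give the precision this allows. The number of members called moved with several choices. Against VEH-HC in VEH-T10 it was 0, but 1 (Gabra3) with only the libraries compared and 1 without the 3 libraries low in glial markers, a choice made after seeing the data. In Y397F-T10 it was 1 (Gabrb1), but 0 with centred libraries, 0 with length and GC trends removed, 0 with only the libraries compared, and 2 without those 3 libraries. In VEH-T3 it was 1, but 0 with length and GC trends removed, 0 with only the libraries compared and 2 without those 3 libraries. In Y397D-T3 it was 1, but 2 with length and GC trends removed (Gabra5 added), 2 with only the libraries compared and 2 without those 3 libraries (Gabra3 added). Across the 5 conditions it was 1, and 2 without those 3 libraries. With 1 library left out at a time it ranged from 0 to 2 in Y397F-T10 and VEH-T3, from 1 to 2 in Y397D-T3 and across conditions, and stayed at 0 to 0 in VEH-T10 against VEH-HC and in the comparisons among trained mice. Apart from Gabra3 and Gabra5, the called member was Gabrb1.

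The replicate number as a block gave 2 called members in VEH-T3 (Gabra3 added, adjusted p = 0.0253 in limma) and changed no other count. The numbers did not pair the mice: the 60 same-numbered pairs had a median correlation of deviations of 0.0416 (from -0.496 to 0.84), against 0.00649 for other pairs, and 8 of 30 libraries matched best with their own number.

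Differences near 0 changed sign with centred libraries or with length and GC trends removed. For Gabra4 they became 0.012 and 0.00019 in Y397F-T10 against VEH-HC, 0.0027 and 0.017 in VEH-T10 against VEH-T3, and 0.0013 in Y397D-T3 against VEH-T3 with trends removed. For Gabrb2 in Y397D-T3 against VEH-HC they became 0.0020 and 0.015. For Gabra2 in Y397D-T3 against VEH-T3 the difference became 0.038 with trends removed and 0.024 without the 3 libraries, and for Gabra3 in Y397F-T10 against VEH-T10 it became -0.074 without them. With 1 library left out, such differences ranged across 0. Against VEH-HC these were Gabra4 in Y397F-T10 (-0.049 to 0.011), Gabrb2 in VEH-T3 (-0.11 to 0.058) and Gabrd in Y397D-T3 (-0.0497 to 0.072). In Y397F-T10 against VEH-T10 they were Gabra3 (-0.19 to 0.14), Gabra5 (-0.055 to 0.0072) and Gabrd (-0.031 to 0.23), in Y397D-T3 against VEH-T3 Gabra2 (-0.068 to 0.024) and Gabrb2 (-0.093 to 0.078), and in VEH-T10 against VEH-T3 Gabra4 (-0.065 to 0.043) and Gabrd (-0.26 to 0.0088). None of these passed. The cause of these moves was not tested.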
